A study of Homo sapiens with 6 samples.

Results

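A set of 10 genes of the Sprouty, SPRED and dual-specificity phosphatase families was followed in human liver cancer cells: SPRY1, SPRY2, SPRY4, SPRED1, SPRED2, DUSP1, DUSP4, DUSP5, DUSP6 and DUSP10. They are 10 of the 22091 gene IDs in the count files, and all 10 passed the filter on low counts. They were chosen by name as feedback inhibitors of mitogen-activated protein kinase (MAPK) signalling, with earlier results of these data known. The cells were the established hepatocellular carcinoma lines MHCC97L, MHCC97H and HCCLM3, maintained in DMEM with fetal bovine serum. Each was sequenced once as a control and once after 2.5 ng/mL TGF-β1, a growth factor that signals through SMAD transcription factors, both labelled 4 h. There are 3 control and 3 TGF-β1 libraries. A p-value for the treatment rests on how much the response varied from line to line, since each line has 1 library per condition. The test estimates that variation for a gene partly from the gene itself and partly from all genes tested.

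Growth factor receptors with tyrosine kinase activity switch on RAS, which starts the cascade from RAF through MEK to ERK. ERK activity induces transcription of Sprouty and SPRED genes, whose proteins restrain the step from receptor to RAF, and of several DUSP genes, whose products remove phosphate from threonine and tyrosine of the MAPKs themselves. DUSP5 and DUSP6 act mainly on ERK, in the nucleus and the cytoplasm respectively, DUSP1 and DUSP4 are nuclear phosphatases with a broader range of MAPKs, and DUSP10 acts mainly on the stress kinases JNK and p38. In liver, Sprouty and SPRED proteins are known as brakes on growth factor signalling in hepatocytes and hepatocellular carcinoma, and TGF-β can itself activate MAPKs alongside the SMADs.

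Library totals ran from 18485041 to 23242862 expected counts, so that 3 counts, the most that a count of 0 allows, were 0.129 to 0.162 CPM, the count of a gene scaled to a fixed library size. With edgeR, 2047 of 14176 genes (14.4%) had a Benjamini-Hochberg adjusted p under 0.05 for the treatment. Leaving out a line gave 611 (MHCC97L), 981 (MHCC97H) or 3971 (HCCLM3). Of the genes called, 53.9% were higher after TGF-β1, a share of 44.2% with upper quartile scaling and 37.1% with library totals. The TGF-β1 label was checked with the known SMAD targets SMAD7, SKIL and PMEPA1, which rose by edgeR. SMAD7 rose by 1.05, 1.23 and 1.29 on the log2 scale in MHCC97L, MHCC97H and HCCLM3. Of 9 hepatocyte genes, 8 reached 1 CPM in at least 1 library. HNF4A (79.0 to 208 CPM), KRT8 and KRT18 were at 5 CPM or more in every library and rose after TGF-β1 (HNF4A by 0.97 on the log2 scale). SERPINA1 of the same list rose by 0.89 and APOB fell by 0.80 (adjusted p 0.00169 and 0.0188 by edgeR), while ALB lay between 1.26 and 22.9 CPM and TTR stayed at or under 0.755 CPM. Summed markers of stellate cells and fibroblasts were 10.3 to 34.0 CPM in controls and 12.0 to 33.1 CPM after TGF-β1. Of 7 genes, 3 reached 1 CPM in any library: LUM (9.27 to 17.7 CPM), COL3A1 (0.0435 to 14.4 CPM) and DCN (0.348 to 3.49 CPM). The leukocyte gene PTPRC reached at most 0.131 CPM and the endothelial gene CDH5 at most 0.348 CPM, while PECAM1 (5.91 to 31.0 CPM; change -0.39, adjusted p 0.0342 by edgeR) and CD68 (109 to 246 CPM) were present in every library. Counts of SKIL, HNF4A, KRT8, KRT18, SERPINA1, DCN, PTPRC, PECAM1 and CD68 were not whole, so their values are less certain. The part of other cell types in the results was not tested.

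Of the 10 genes, the promoters of the Sprouty gene and the phosphatase gene that changed most are shown for context, as the 250 bases before the RefSeq start (GRCh38.p14) that lie outside the gene's own exons. Each window was searched on both strands for CAGAC (a core of SMAD-binding sequences), GGCGC (a GC-rich SMAD-binding sequence), TGANTCA (AP-1), TGACGTCA (the cyclic AMP response element) and CCGGAA (ETS), and all matches are in capitals. The first start of SPRY1, at chr4:123396545-123396794 on the plus strand, and the start of DUSP1, at chr5:172771196-172771445 on the minus strand, read as follows.
SPRY1: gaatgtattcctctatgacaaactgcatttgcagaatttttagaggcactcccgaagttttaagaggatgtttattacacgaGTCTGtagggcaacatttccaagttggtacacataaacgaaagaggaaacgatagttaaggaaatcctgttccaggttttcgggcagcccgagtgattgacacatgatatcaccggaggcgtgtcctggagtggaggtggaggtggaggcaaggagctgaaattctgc
DUSP1: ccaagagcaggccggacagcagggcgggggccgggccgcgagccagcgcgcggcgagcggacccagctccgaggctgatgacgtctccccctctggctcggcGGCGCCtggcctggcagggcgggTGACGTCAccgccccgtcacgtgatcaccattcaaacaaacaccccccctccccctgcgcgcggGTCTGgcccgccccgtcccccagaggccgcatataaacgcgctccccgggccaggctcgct
The SPRY1 window holds CAGAC once, on the opposite strand and starting 168 bases before the start site, and none of the other motifs searched. A second start of SPRY1, whose window lies in the gene's own exons and is not shown, has CCGGAA once, starting 67 bases before it, and no CAGAC. The DUSP1 window holds TGACGTCA once, starting 125 bases before the start site, CAGAC once at 61 bases, and GGCGC as an overlapping pair. Of 35116 promoter windows of the same length, 38% hold CAGAC, 44.5% GGCGC, 14.5% CCGGAA, 6.57% TGANTCA and 1.65% TGACGTCA. The matches are letters in a window and were not tested as binding sites. In the table of promoters 8 of the 10 genes were matched, and DUSP4 and DUSP5 were not.

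The first comparison asks whether the feedback genes respond to TGF-β1 across the lines. SPRY1 and DUSP5 fell and DUSP1 rose, so that 3 of 10 passed, against 14.4% of all genes tested, with 2 lower against a background of 6.65% and 1 higher against 7.79%. The median change of the 10 genes was -0.03 on the log2 scale, beside -0.0029 over all genes tested. SPRY1, SPRED1, SPRED2 and DUSP5 were lower in all 3 lines, as were 25.7% of genes tested, and DUSP1 and DUSP10 were higher in all 3, as were 24.8%. SPRY2, SPRY4, DUSP4 and DUSP6 moved in different directions in different lines. In a fit that ignores the pairing of libraries by line, 0 of the 10 passed by edgeR. In bulk RNA a lower level in all cells and fewer cells expressing a gene cannot be told apart. The plot of CPM by line shows the 10 genes together.

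**Figure D1:**
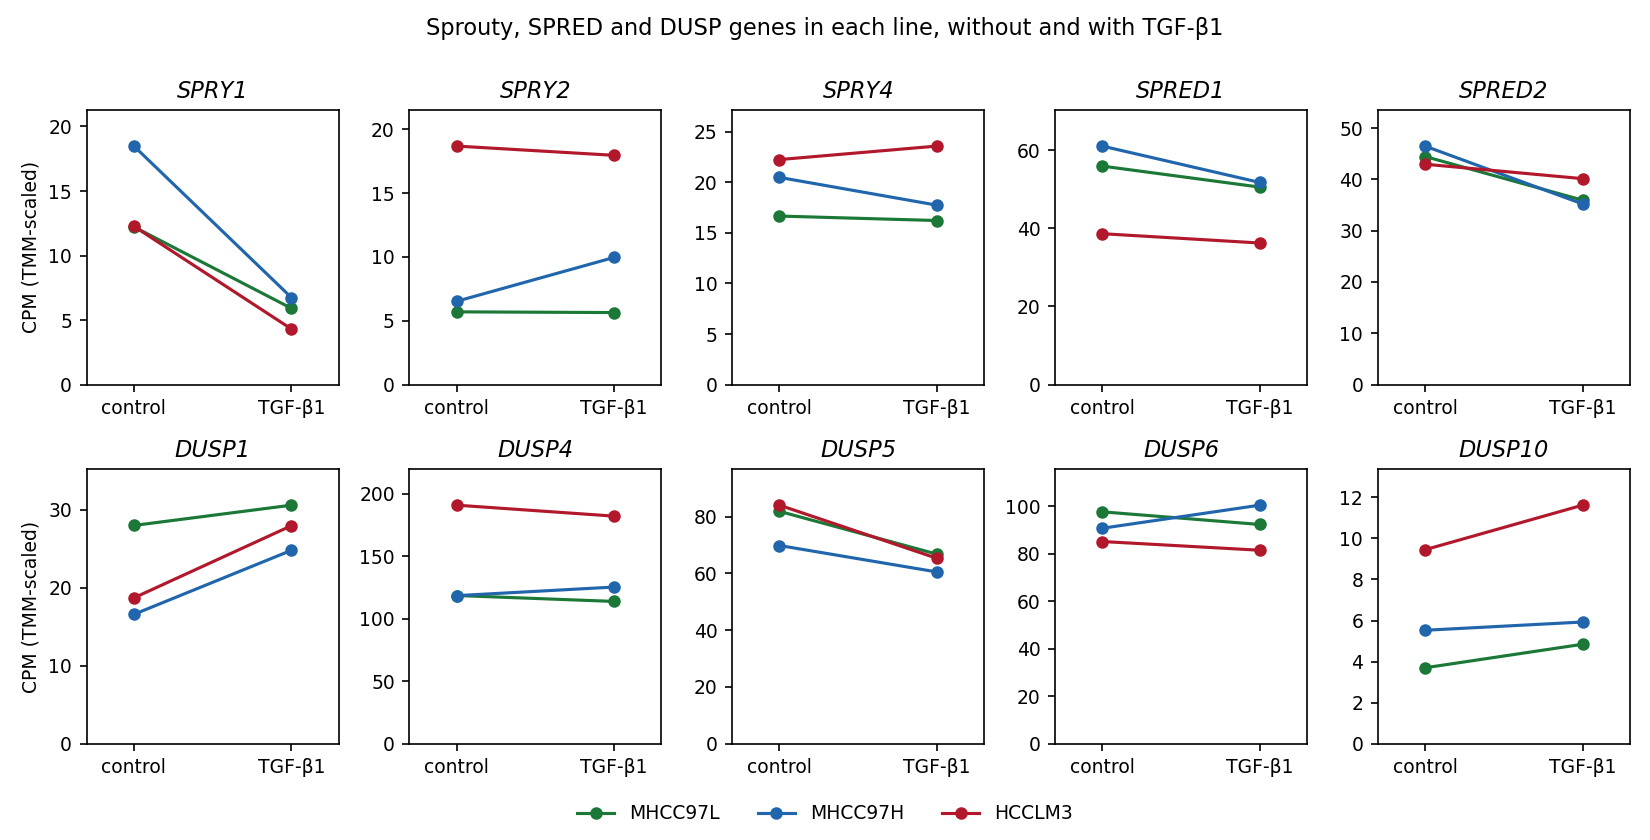
CPM (scaled library size, each axis from 0) of the 10 genes in the control and TGF-β1 library of each line; each point is 1 library and a line joins the libraries of 1 cell line. SPRY1 falls in all 3 lines, DUSP5 falls less steeply in all 3, and SPRY2, SPRED1, DUSP4 and DUSP10 are separated more by cell line than by treatment.

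Of the Sprouty genes, whose products are induced inhibitors of receptor tyrosine kinase signalling, SPRY1 changed most. SPRY1 (ENSG00000164056.10, hg38 chromosome 4, 123396795 to 123403760, plus strand) stood at 12.2 CPM (control) and 5.91 CPM (TGF-β1) in MHCC97L, 18.5 and 6.74 CPM in MHCC97H, and 12.3 and 4.31 CPM in HCCLM3. All TGF-β1 libraries were below all control libraries. Among the 10 genes SPRY1, SPRED2 and DUSP5 separated in this direction and 0 in the other, against 9.18% and 8.78% of genes tested. The level was 14.3 ± 3.6 CPM in controls and 5.65 ± 1.24 CPM after TGF-β1 (SD, n = 3 lines). The fitted change was -1.33 (SE 0.127), a level 2.52-fold lower, with an adjusted p of 0.000423 by edgeR. The change by line was -1.04 in MHCC97L (95% exact interval for counting error -1.36 to -0.75), -1.44 in MHCC97H (-1.73 to -1.18) and -1.49 in HCCLM3 (-1.88 to -1.15). SPRY1 had whole counts and overlaps no other annotated gene.

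SPRY2 (ENSG00000136158.11, chromosome 13, 80335976 to 80340951), the Sprouty protein most studied as a target of tyrosine phosphorylation, had levels set apart by line. It stood at 5.70 CPM (control) and 5.64 CPM (TGF-β1) in MHCC97L, 6.53 and 9.96 CPM in MHCC97H, and 18.7 and 17.97 CPM in HCCLM3. In MHCC97H the TGF-β1 library was thus the higher, by 0.60 (0.30 to 0.93), and in the other lines the intervals spanned 0. The fitted change of 0.17 (SE 0.145) did not pass (adjusted p 0.483 by edgeR). SPRY4 (ENSG00000187678.8, chromosome 5, 142310427 to 142326455), a family member that also restrains RAS activation, went from 16.7 to 16.2, from 20.5 to 17.7 and from 22.2 to 23.6 CPM in the same order of lines. SPRY4 was lower in MHCC97H beyond counting error (-0.41 to -0.0094) but its groups overlapped, and its change of -0.05 (SE 0.093) did not pass (adjusted p 0.744 by edgeR). Summed per kb of exon, SPRY1, SPRY2 and SPRY4 together went from 7.5 to 5.82 CPM per kb in MHCC97L, while MHCC97H had 9.93 and 7.68 and HCCLM3 12.6 and 10.6.

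The SPRED proteins carry an EVH1 domain as well as a Sprouty-related domain and bring neurofibromin, the product of NF1, to the membrane, where it switches RAS off. SPRED2 (ENSG00000198369.9, chromosome 2, 65310851 to 65432637) stood at 44.5 CPM (control) and 35.9 CPM (TGF-β1) in MHCC97L, 46.5 and 35.2 CPM in MHCC97H, and 43.0 and 40.1 CPM in HCCLM3. The 3 TGF-β1 libraries lay below the 3 controls, closest in HCCLM3. Its change of -0.27 (SE 0.083) did not pass the threshold (adjusted p 0.0615 by edgeR), but it passed with library totals (0.0323), with upper quartile scaling (0.0434) and without HCCLM3 (0.00469); across its alternatives it ran from 0.00469 to 0.404. SPRED1 (ENSG00000166068.12, chromosome 15, 38252326 to 38357249) went from 55.9 to 50.5, from 61.0 to 51.7 and from 38.6 to 36.2 CPM in the same order of lines. It was lower after TGF-β1 in each line while the groups overlapped, and its change of -0.16 (SE 0.072) did not pass (adjusted p 0.17 by edgeR). SPRED1 counts were not whole in every library, so its values are less certain than those of genes with whole counts.

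Among the phosphatase genes DUSP1 and DUSP5 changed in opposite directions. DUSP1 (ENSG00000120129.5, chromosome 5, 172768090 to 172771195, minus strand), an immediate early gene, stood at 28.0 CPM (control) and 30.6 CPM (TGF-β1) in MHCC97L, 16.6 and 24.8 CPM in MHCC97H, and 18.7 and 27.9 CPM in HCCLM3. The MHCC97L control was above the MHCC97H and HCCLM3 TGF-β1 libraries, so the groups overlapped. The fold by line was 1.09, 1.49 and 1.49, and the counting interval of the log2 change spanned 0 in MHCC97L (-0.03 to 0.29) only. The fitted change was 0.42 (SE 0.108), 1.34-fold, with an adjusted p of 0.0341 by edgeR. That call was lost by DESeq2 (adjusted p 0.0507), with library totals (0.0522) and without MHCC97H (0.14); across its alternatives it ran from 0.0292 to 0.549.

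DUSP5 (ENSG00000138166.5, chromosome 10, 110497838 to 110511544, plus strand), the nuclear ERK phosphatase, stood at 81.8 CPM (control) and 66.7 CPM (TGF-β1) in MHCC97L, 69.8 and 60.5 CPM in MHCC97H, and 84.0 and 65.3 CPM in HCCLM3. All TGF-β1 libraries were below all controls, and the level fell from 78.5 ± 7.66 to 64.2 ± 3.28 CPM (SD, n = 3 lines). The fitted change was -0.29 (SE 0.069), 1.22-fold lower, with an adjusted p of 0.0264 by edgeR. By line the change was -0.29 (-0.39 to -0.20), -0.21 (-0.31 to -0.10) and -0.36 (-0.47 to -0.26), none of which spanned 0. Without MHCC97L the change was -0.28 and the adjusted p 0.278; across its alternatives it ran from 0.0166 to 0.346.

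The other phosphatase genes did not pass. DUSP6 (ENSG00000139318.7, chromosome 12, 89347232 to 89353271), the cytoplasmic ERK phosphatase and a common readout of ERK activity, stood at 97.6 CPM (control) and 92.3 CPM (TGF-β1) in MHCC97L, 90.7 and 100.4 CPM in MHCC97H, and 85.1 and 81.4 CPM in HCCLM3. In MHCC97H the TGF-β1 library was higher beyond counting error (0.06 to 0.23), and in the other lines the intervals spanned 0. Its change was 0.0010 (SE 0.073), with an adjusted p of 0.994 by edgeR and a sign that turned with library totals (-0.05) and upper quartile scaling (-0.03). Its exons overlap those of the antisense gene AC024909.2, and the sources used here do not say whether counting used strand. DUSP4 (ENSG00000120875.8, chromosome 8, 29333064 to 29350668), a nuclear phosphatase gene induced by ERK, went from 118.7 to 113.9, from 118.6 to 125.5 and from 191 to 182 CPM, and its change of -0.02 (SE 0.066) did not pass. DUSP10 (ENSG00000143507.17, chromosome 1, 221701424 to 221742176), a phosphatase gene for JNK and p38, had the lowest median level per kb of exon, with 85 to 240 counts in a library. It stood at 3.70 CPM (control) and 4.84 CPM (TGF-β1) in MHCC97L, 5.53 and 5.93 CPM in MHCC97H, and 9.45 and 11.6 CPM in HCCLM3, a change of 0.26 (SE 0.126) with an adjusted p of 0.202 by edgeR. DUSP10 was higher after TGF-β1 in each line, but the groups overlapped, and the counting interval spanned 0 in MHCC97L and MHCC97H.

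**Figure D2:**
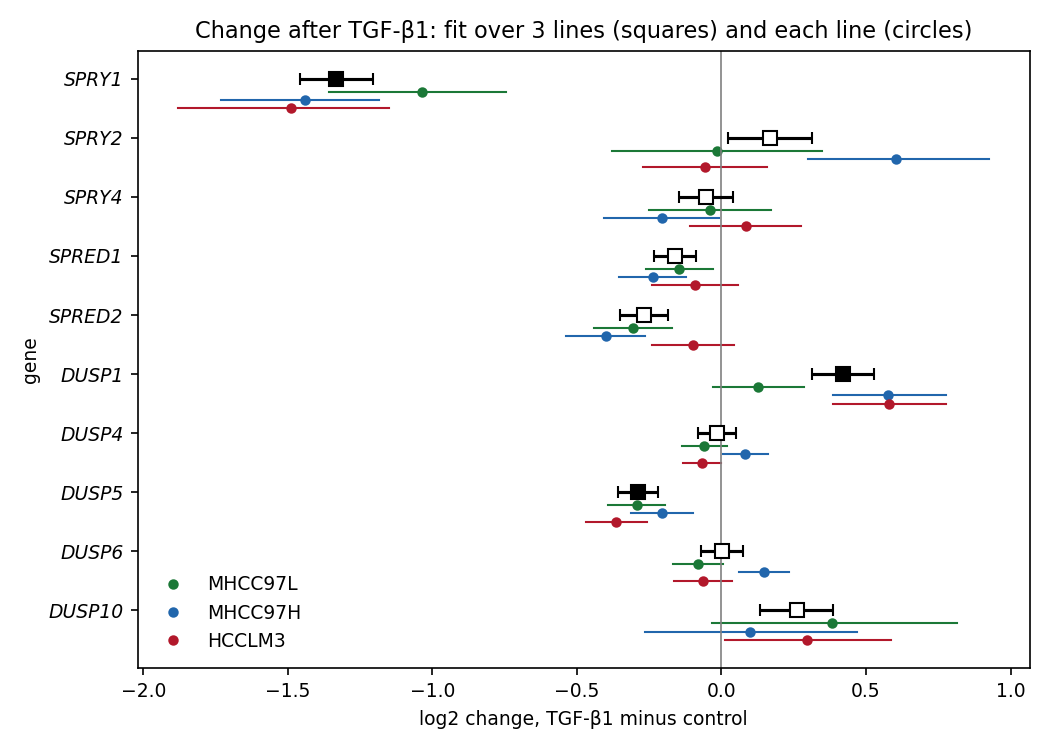
Log2 change (TGF-β1 minus control) of the 10 genes. Squares are the edgeR estimate over 3 lines with its SE, filled where the adjusted p is under 0.05. Circles are single lines with 95% exact intervals for counting error. SPRY1 lies near -1.33 with every line below -1, and DUSP1 and DUSP5 are the other filled squares.

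Within single lines, with 1 library per condition and no test, SPRY1 was the only one of these genes at 1.5-fold or more lower, in each line. That background was 2.17% of genes with 5 CPM or more in MHCC97L, 3.94% in MHCC97H and 2.23% in HCCLM3. In MHCC97H SPRY2 was also 1.53-fold higher, where 5.16% of genes were 1.5-fold or more higher (3.58% in MHCC97L and 3.5% in HCCLM3, with 0 of these genes in either), and it was under 1.5-fold with library totals.

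The second comparison asks how the feedback genes differ between the 3 lines, each line taken over its control and TGF-β1 library with treatment in the model (n = 2 libraries per line). The p-values rest on how much the treatment response varied from line to line, since each line has 1 library per condition. That variation is again estimated partly from all genes tested. Variation between cultures of a line was not measured, and the SD of a line includes its treatment change. HCCLM3 differed from each MHCC97 line in 5 of the 10 genes. Background shares were 29.8% of genes tested against MHCC97L and 27.2% against MHCC97H, and these comparisons share the HCCLM3 libraries. Against MHCC97L 4 genes were higher and 1 lower, beside 15% and 14.8% of genes tested, and against MHCC97H 3 were higher and 2 lower, beside 13.3% and 13.9%. SPRY2, DUSP4 and DUSP10 were higher and SPRED1 lower in HCCLM3 in both.

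SPRY2 had the largest difference, with 18.3 ± 0.51 CPM in HCCLM3, 5.67 ± 0.039 CPM in MHCC97L and 8.25 ± 2.43 CPM in MHCC97H (SD, n = 2 libraries). It was 3.23-fold higher in HCCLM3 than in MHCC97L (adjusted p 0.000174 by edgeR) and 2.23-fold higher than in MHCC97H (0.00126). DUSP10 was 2.47-fold and 1.84-fold higher, with 10.5 ± 1.53 CPM in HCCLM3 against 4.27 ± 0.81 and 5.73 ± 0.28 CPM. Both HCCLM3 libraries were above all 4 MHCC97 libraries for SPRY2, SPRY4, DUSP4 and DUSP10, and below all 4 for SPRED1 and DUSP6. The share of all genes that separate in this way was not counted. DUSP4 stood at 187 ± 6.21 CPM in HCCLM3, 116.3 ± 3.35 CPM in MHCC97L and 122 ± 4.87 CPM in MHCC97H, a 1.60-fold and 1.53-fold difference. SPRED1 was lower in HCCLM3, at 37.4 ± 1.68 CPM against 53.2 ± 3.8 and 56.4 ± 6.58 CPM, with log2 differences of -0.51 (SE 0.088) and -0.59 (SE 0.088).

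SPRY4 passed against MHCC97L only (0.48, SE 0.114, adjusted p 0.0125 by edgeR) and SPRY1 against MHCC97H only (-0.61, SE 0.154, adjusted p 0.018). The comparison of MHCC97H with MHCC97L tests whether those differences are unequal, and neither gene passed it. SPRY4 also passed against MHCC97H without the HCCLM3 control (adjusted p 0.0441 by edgeR, range over alternatives 0.0441 to 0.562). Against MHCC97L the calls of SPRY4 and SPRED1 rested on both MHCC97L libraries: without its control their adjusted p by edgeR was 0.15 and 0.0594, and without its TGF-β1 library 0.136 and 0.0685 (ranges over alternatives 0.0036 to 0.15 and 0.000466 to 0.0685). The differences themselves were then 0.47 and 0.49 for SPRY4 and -0.52 and -0.50 for SPRED1, and the remaining MHCC97L library is assumed to vary like the other lines. The call of SPRY1 against MHCC97H was lost without the MHCC97H control (0.163) and by DESeq2 (0.0898), in a range of 0.0112 to 0.163.

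Between MHCC97H and MHCC97L 0 of the 10 genes passed by edgeR, by DESeq2 or by limma-voom, where 2.45% of all genes passed by edgeR, 1.37% higher and 1.09% lower in MHCC97H. At an unadjusted p under 0.05, where the share of all genes was not counted, DESeq2 gave 0 of these genes higher and 1 lower. By edgeR there were 4 genes, SPRY1, SPRY2 and DUSP10 higher in MHCC97H and DUSP1 lower. DUSP1 had the smallest p of these, with 29.3 ± 1.84 CPM in MHCC97L and 20.7 ± 5.8 CPM in MHCC97H, a difference of -0.53 (SE 0.131) and an adjusted p of 0.0839. It passed when the control or the TGF-β1 library of HCCLM3 was left out of the fit (adjusted p 0.0173 and 0.0074 by edgeR, range over alternatives 0.0074 to 0.928), and so did SPRY1 without the latter (0.0476, range 0.0476 to 1). DUSP1 also passed between HCCLM3 and MHCC97L, where its adjusted p was 0.0739, without the TGF-β1 library of MHCC97L (0.0492) or of HCCLM3 (0.0284), in a range of 0.0284 to 0.732.

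Levels of different genes were set side by side per kb of merged annotated exons, which is longer than most single transcripts. DUSP5 had the highest median, 26.1 CPM per kb (23.1 to 32.1 over the 6 libraries), followed by DUSP6 at 19.8 (17.6 to 21.7) and DUSP4 at 16.8 (15.7 to 26.3). DUSP5 and DUSP6 did not overlap, whereas the range of DUSP4 overlapped both and lay above that of DUSP1. DUSP1 followed at 13.1 CPM per kb (8.21 to 15.1), then SPRED2 at 8.06 (6.83 to 9.02) and SPRED1 at 6.19 (4.39 to 7.39), each overlapping the next. The Sprouty genes had lower medians, SPRY4 at 2.91 (2.47 to 3.59), SPRY2 at 2.71 (1.86 to 6.15) and SPRY1 at 2.39 (1.09 to 4.66). DUSP10 had the lowest median, 1.97 (1.27 to 3.99), and the ranges of the Sprouty genes and DUSP10 overlapped one another. After TGF-β1 SPRY1 was below DUSP10 in each line (1.49 against 1.66, 1.70 against 2.03 and 1.09 against 3.99). Among the controls SPRY1 was below DUSP10 in HCCLM3 only. All SPRY4 libraries were below all SPRED1 libraries. In HCCLM3 SPRY2 was above SPRED1, at 6.15 against 4.67 (control) and 5.91 against 4.39 CPM per kb (TGF-β1), and in the other lines it was below. In the controls SPRY1 was above SPRY2 in MHCC97L and MHCC97H, at 3.08 against 1.88 and 4.66 against 2.15 CPM per kb, and after TGF-β1 it was below it, at 1.49 against 1.86 and 1.70 against 3.28. In HCCLM3 SPRY2 was the higher in both libraries, at 6.15 against 3.09 and 5.91 against 1.09 CPM per kb.

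**Figure D3:**
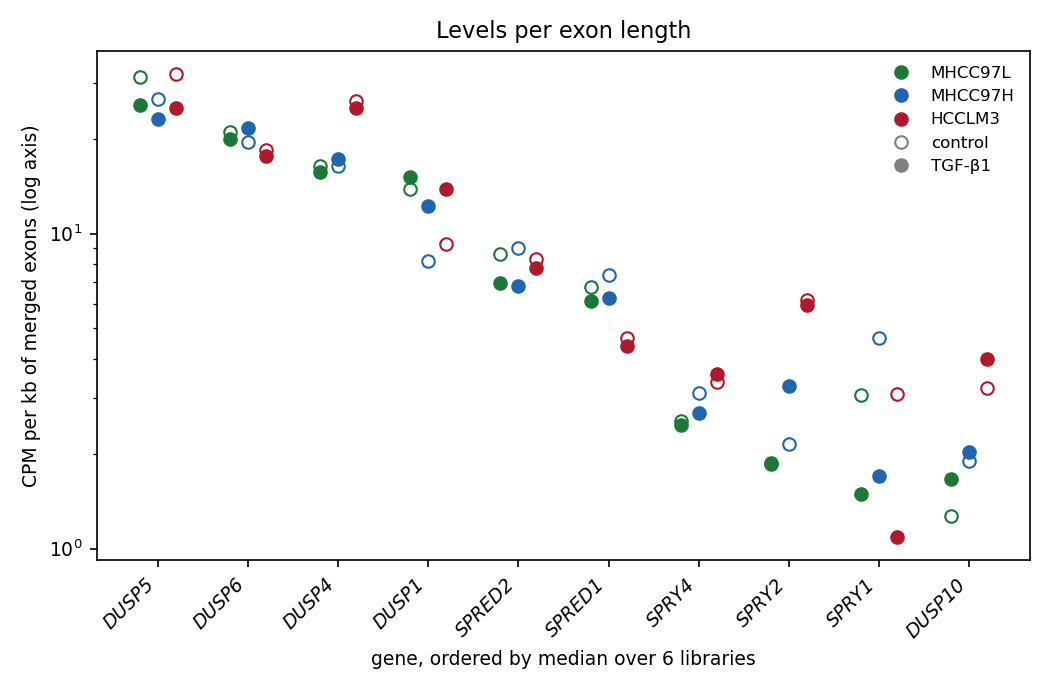
CPM per kb of merged exons on a log axis for the 10 genes, ordered by their median over 6 libraries; open circles are controls, filled circles TGF-β1, and colours are lines. DUSP5, DUSP6 and DUSP4 lie highest, and the red HCCLM3 points stand above the other lines for SPRY2, SPRY4, DUSP4 and DUSP10.

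For the genes that passed after TGF-β1, the 3 genes with the closest pattern were found among 10440 genes with a symbol and 5 CPM or more, as the root mean square distance of log2 CPM centred over the 6 libraries. SPRY1 was closest to KITLG (0.20), which encodes the KIT ligand, FLRT3 (0.22) and TRERF1 (0.25), whose changes were -1.17, -1.02 and -0.95. DUSP1 was closest to EDN1 (0.096), which encodes endothelin-1, ZC3H12A (0.10), an RNase gene, and CLCF1 (0.11), a cytokine gene, with changes of 0.41, 0.31 and 0.45. DUSP5 was closest to ZYG11A (0.046), HLCS (0.050) and NAT10 (0.051), with changes of -0.26, -0.35 and -0.26, of which ZYG11A did not pass. Counts were not whole for CLCF1, ZYG11A and HLCS, and exons of these 3 genes, KITLG and ZC3H12A overlap another annotated gene, so their values are uncertain.

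The rest of the families and the pathway around the feedback genes were read from 7 lists with 88 genes, 78 of them tested, of which 11 rose and 10 fell (26.9% of those tested, beside 14.4% of all genes, 7.79% higher and 6.65% lower). The 21 calls were 12 without MHCC97L and 34 without HCCLM3, where 611 and 3971 of all genes passed. The lists were chosen with earlier results of these data known, so their share of calls is not independent of that choice. Among 8 other family genes tested, DUSP7 rose and DUSP2 fell, beside 7.79% and 6.65% of all genes. DUSP2, a nuclear phosphatase gene known from activated lymphocytes, stood at 3.65 CPM (control) and 1.82 CPM (TGF-β1) in MHCC97L, 3.43 and 1.16 CPM in MHCC97H, and 2.60 and 0.823 CPM in HCCLM3. Its change was -1.35 (SE 0.218, adjusted p 0.00573 by edgeR) at a low level, with 17 to 84 counts. DUSP7, a cytoplasmic ERK phosphatase gene related to DUSP6, went from 23.3 to 31.1, from 20.6 to 27.7 and from 49.2 to 77.7 CPM, a change of 0.51 (SE 0.082, adjusted p 0.0059 by edgeR). HCCLM3 was the highest line for DUSP7 in both conditions. DUSP3 (-0.03), DUSP16 (-0.17), DUSP9 (0.34), SPRED3 (-0.33) and DUSP8 (-0.29) did not pass. Counts of DUSP3, DUSP16, SPRED3 and DUSP8 were not whole, so their values are less certain. Without HCCLM3 SPRED3 passed at -0.60 (adjusted p 0.0482 by edgeR, range over alternatives 0.0482 to 0.924), and DUSP8 changed sign to 0.26. DUSP14, whose counts were not whole, had 6 counts in the control and 284 after TGF-β1 in MHCC97L, 226 and 190 in MHCC97H, and 207 and 252 in HCCLM3, so its change of 0.81 (SE 1.22) rests on 1 control library and was -0.12 without MHCC97L. SPRY3 was counted under a pair of IDs and is not reported.

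Upstream, ligand genes of receptor tyrosine kinases included 5 that rose and 2 that fell of 12 tested, beside 7.79% and 6.65% of all genes. The median change was 0.07. PDGFA rose by 1.19 (SE 0.088), FGF2 by 1.29 (SE 0.098) and VEGFA by 0.63 (SE 0.069), and PDGFB and HBEGF rose by 2.76 and 0.87. KITLG fell by 1.17 (SE 0.098) on the log2 scale and the EGF receptor ligand gene EREG by 0.36 (SE 0.097). Without MHCC97L the adjusted p of EREG by edgeR was 0.27 and with no count filter 0.0517 (range over alternatives 0.00754 to 0.783). FGF2 exons overlap NUDT6 and those of VEGFA and KITLG overlap antisense genes, and counts of FGF2 and EREG were not whole, so these values are uncertain.

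Of 12 receptor genes tested 3 fell and 0 rose by edgeR, beside 6.65% and 7.79% of genes tested. At an unadjusted p under 0.05, where the share of all genes was not counted, edgeR had 3 lower and 0 higher. By DESeq2 and by limma-voom 0 rose, with 1 higher at an unadjusted p under 0.05 by DESeq2. The hepatocyte growth factor receptor gene MET went from 6838 ± 379 to 5437 ± 662 CPM (SD, n = 3 lines), a change of -0.34 (SE 0.070). ERBB3 changed by -0.56 (SE 0.096) and the insulin receptor gene INSR by -0.36 (SE 0.073), and the list's median was 0.03. Without MHCC97L or MHCC97H 1 receptor gene passed by edgeR, where 611 and 981 of all genes passed. The adjusted p by edgeR was then 0.291 and 0.108 for MET (range over alternatives 6.02e-05 to 0.368) and 0.122 and 0.0656 for INSR (0.00465 to 0.618). Counts of MET and ERBB3 were not whole, and ERBB3 exons overlap AC034102.2.

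Of 13 adaptor and RAS genes 2 fell by edgeR and by limma-voom and 1 by DESeq2, and 0 rose by any of them, with 2 higher at an unadjusted p under 0.05 by edgeR. The share called by edgeR was near the 14.4% of all genes. No share of all genes was counted at the unadjusted threshold. NF1, the RAS-inactivating partner of the SPRED proteins, went from 82.1 ± 5.74 to 62.5 ± 2.01 CPM, a change of -0.39 (SE 0.077, adjusted p 0.0123 by edgeR). SOS1, which activates RAS, changed by -0.31 (SE 0.087, adjusted p 0.0453 by edgeR). Without MHCC97L or MHCC97H 0 of these genes passed by edgeR, where 611 and 981 of all genes passed. The adjusted p by edgeR was then 0.134 and 0.057 for NF1 (range 0.000374 to 0.203) and 0.209 and 0.225 for SOS1 (0.00496 to 0.528). In the fit without HCCLM3 4 of these genes passed, where 3971 of all genes passed. The call of SOS1 was also lost by DESeq2 (0.0718) and with no count filter (0.0648), and NF1 exons overlap EVI2A on the opposite strand.

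In the ERK cascade 0 of 10 genes, RAF, MEK and ERK genes among them, passed by edgeR, beside 14.4% of all genes. At an unadjusted p under 0.05, where the share of all genes was not counted, 2 were higher and 3 lower. By limma-voom 0 passed and by DESeq2 1, MAP2K2, where 2248 and 1423 of all genes passed. Without HCCLM3 3 passed by edgeR, where 3971 of all genes passed. The median was -0.09. In the JNK and p38 cascade the kinase gene MAPKAPK2 rose by 0.35 (SE 0.079) and MAP3K5, which encodes ASK1, fell by 0.90 (SE 0.172) on the log2 scale, of 11 tested, beside 7.79% and 6.65% of all genes. Without MHCC97L or MHCC97H MAPKAPK2 did not pass (adjusted p 0.243 and 0.0868 by edgeR, range 0.000319 to 0.248), and its counts were not whole. In the fit without HCCLM3 5 genes of this list passed, where 3971 of all genes passed.

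Of 12 tested genes known as ERK targets 4 rose and 1 fell by edgeR, beside 7.79% and 6.65% of all genes, with a median of 0.18. By DESeq2 5 rose and 1 fell, where 1423 of all genes passed, 62.0% of them higher. IER2 rose by 0.66 (SE 0.088), the sphingosine kinase gene SPHK1 by 1.25 (SE 0.154), the apoptosis inhibitor gene MCL1 by 0.34 (SE 0.063) and EGR1 by 0.43. MYC changed by -0.26 (SE 0.073). Without MHCC97L 3 of these genes passed, where 611 of all genes passed. MCL1 (adjusted p 0.124 by edgeR, range 0.00011 to 0.218) and MYC (0.475, range 0.00202 to 0.475) then did not, nor did MYC without MHCC97H (0.137) or with no count filter (0.0657). SPHK1 exons overlap PRPSAP1 and its counts were not whole, and exons of IER2 and MCL1 overlap non-coding genes, so these values are uncertain.

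**Figure D4:**
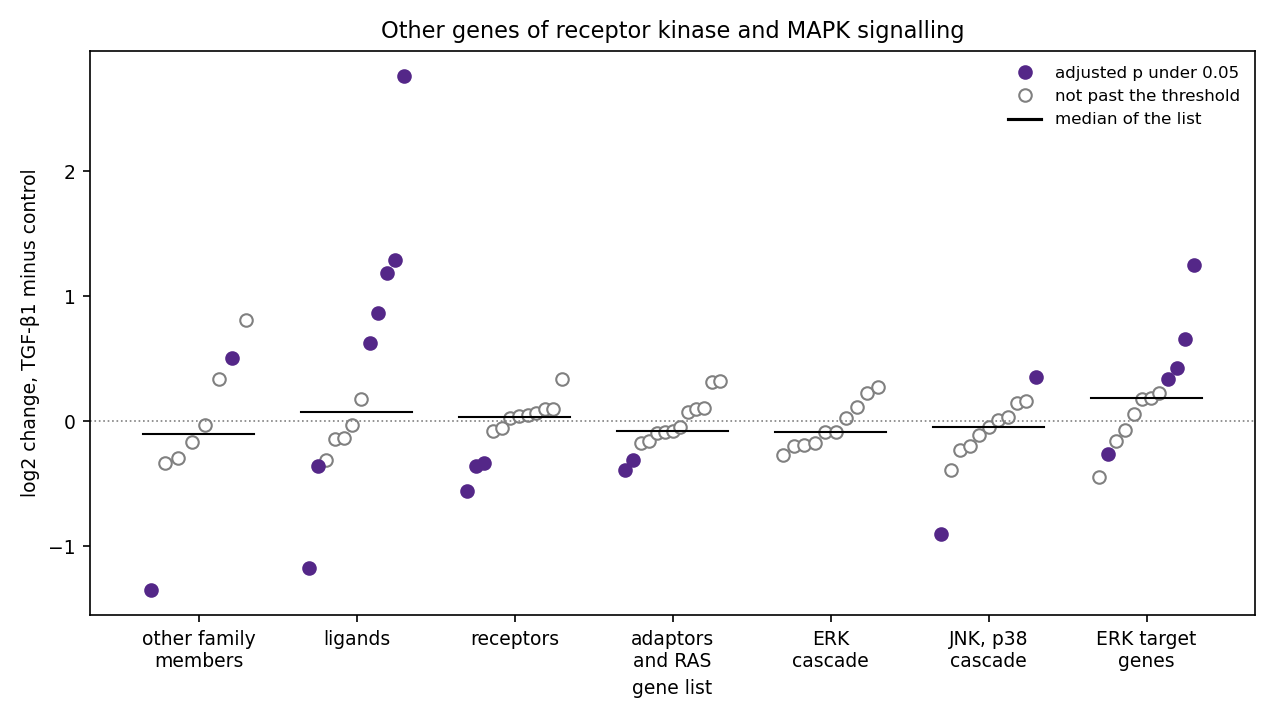
Log2 change (TGF-β1 minus control) of the 78 tested genes of 7 lists; each point is 1 gene, filled where the adjusted p is under 0.05, and the bar is the list's median. Ligands and ERK target genes hold most of the filled points above 0, filled receptor, adaptor and RAS points lie below 0, and the ERK cascade has none.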

How the data were processed

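RNA of 6 libraries (3 lines, control and TGF-β1) was sequenced. The authors deposited expected counts per Ensembl gene, 1 file per library. Per the submitters' processing notes, hg38 and the tools Cufflinks 2.2.1, TopHat2 2.1.1 and Cuffdiff 1.3.0 were used, with no roles. Neither labels nor files say which tool counted, or whether by strand. Counts were rounded to whole numbers. Symbols and positions came from a gene name table and GENCODE 29, with symbols for 19574 of 22091 IDs. Genes were kept by filterByExpr, scaled by TMM and tested on all 14176 kept genes with edgeR 4.0.16 in R 4.3.3 (quasi-likelihood, robust, line and treatment as terms, Benjamini-Hochberg at 0.05), with limma 3.58.1 and DESeq2 1.42.0 as alternatives. The SE is the change divided by the square root of F. The test was checked on simulated data. CPM uses TMM-scaled library sizes, and changes within a line use a prior count of 2. Intervals are 95% exact conditional binomial intervals and, like floors, cover counting error only, since no molecular identifiers are stated. The line pairs the libraries, per the labels, and deviations from condition means correlated at 0.587, 0.456 and 0.728 across genes in MHCC97L, MHCC97H and HCCLM3. No label says whether libraries came from separate cultures. The 10 genes and the lists were chosen with earlier results of these data known. Named genes are the 10, other family genes, SMAD targets (1 is not reported here), up to 3 called genes per direction and list with 5 CPM or more by p, and the 3 closest in pattern to each called gene. EGR1, HBEGF, PDGFB and MAP2K2 were added after their values were seen.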

Additional observations from a re-analysis of the deposited data

Results flagged for a closer look

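DUSP4 differed in direction between lines by slightly more than counting error with TMM scaling. In MHCC97H it was higher after TGF-β1, by 0.0815 on the log2 scale (95% exact interval 0.0039 to 0.16), and in HCCLM3 lower, at -0.07 (-0.13 to -0.0015). Each value is 1 library against 1, both intervals end close to 0, the changes with library totals were 0.043 and -0.14, and the difference between the lines was not tested.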

How the results depend on the processing

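The fit without the replicate block, which ignores that the libraries of a line are paired, called 10 genes after TGF-β1, with 0 of the feedback genes and 0 of the pathway lists among them. Its adjusted p by edgeR was 0.165 for SPRY1, 0.346 for DUSP5 and 0.549 for DUSP1. Leaving out each line in turn gave 611 to 3971 genes called, 2 to 4 feedback genes and 12 to 34 pathway genes, and leaving out each library gave 3 to 6 feedback genes between HCCLM3 and MHCC97L, 4 to 6 between HCCLM3 and MHCC97H and 0 to 2 between the MHCC97 lines. In MHCC97H 1 feedback gene was past 2-fold, and 1 was past 1.5-fold with CPM by library total. The values that changed sign belong to differences that did not pass. With library totals DUSP6 changed by -0.050 after TGF-β1 and with upper quartile scaling by -0.030, and with the latter DUSP5 differed by -0.014 between HCCLM3 and MHCC97L. Leaving out each line gave changes after TGF-β1 of -0.037 to 0.33 for SPRY2, -0.13 to 0.026 for SPRY4, -0.062 to 0.0073 for DUSP4, -0.071 to 0.043 for DUSP6, -0.63 to 0.26 for DUSP8 and -0.12 to 1.52 for DUSP14. Leaving out each library gave -0.071 to 0.20 for SPRED2 and -0.039 to 0.061 for DUSP5 between HCCLM3 and MHCC97L, -0.090 to 0.18 for SPRED2 between HCCLM3 and MHCC97H, and -0.079 to 0.12 for SPRED2 and -0.097 to 0.12 for DUSP6 between MHCC97H and MHCC97L. The cause of these changes was not tested. With 1 library per line and condition, the treatment fit has 2 residual degrees of freedom, and DUSP2 and DUSP10 are limited by low counts.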
